A study of Mus musculus with 10 samples.

Results

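The 10 genes described here belong to the BCL2 family, the proteins that decide whether the outer mitochondrial membrane of a cell stays closed or is opened to start apoptosis. They were chosen by name as Bcl2, Bcl2l1, Mcl1, Bcl2l11, Bbc3, Pmaip1, Bid, Bak1, Bad and Bik, with earlier results of these data known. All 10 had a probe set that the platform annotation gives a single gene symbol, each of the 10 had 1 such probe set, and they are 10 of 19937 genes measured that way. RNA came from J558, a mouse myeloma line that resembles antibody-secreting plasma cells, transduced with the retroviral vector MSCV-Puro-IRES-GFP. The vector carried no insert (empty vector, 3 arrays), wild-type Pax5 (Pax5 WT, 3 arrays) or the substitution mutant Pax5 G183S (4 arrays). Cells of every group, empty vector included, had passed through 5-7 days of puromycin and a FACS sort on GFP and IgM, so only cells that lived through transduction and selection were measured. All cultures are of this one line, and the labels call the replicates independent and biological.

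BCL2-family proteins fall into 3 roles. Pro-survival members such as BCL-2, BCL-XL (from Bcl2l1) and MCL-1 hold the killer proteins in check, effectors such as BAK form the pores that release cytochrome c, and BH3-only proteins such as BIM (Bcl2l11), PUMA (Bbc3), NOXA (Pmaip1), BID, BAD and BIK switch the balance by binding the other groups. MCL-1 is the member on which plasma cells and myeloma cells are best known to depend. Pax5 is the transcription factor that sets B-cell identity and is normally silent in plasma cells, and G183S is a single-residue change studied here in a series on inherited PAX5 changes and leukaemia.

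Probe-set levels are log2 values, so 1 unit is a doubling, and levels of different genes are not set against each other. Pax5 transcript told empty vector (6.84 to 7.10 log2 units) from Pax5 WT (10.05 to 10.67) and Pax5 G183S (9.38 to 10.36). The ranges of Pax5 WT and Pax5 G183S overlapped, so Pax5 level did not tell these forms apart. Of the markers of the labelled cell type, all 10 plasma-cell genes listed (Sdc1, Prdm1, Xbp1, Irf4 and others) lay above the median gene in every group. Of 7 mature B-cell markers 4 did so with empty vector and 5 with either Pax5 form. Of 7 T-cell markers 1 did so with empty vector and 0 with either Pax5 form. For 8 myeloid markers the counts were 2, 0 and 1 in the empty-vector, Pax5 WT and Pax5 G183S means, and for 6 fibroblast markers 3 in each. The mean of 7 mature B-cell markers was 7.91 to 7.94 log2 units with empty vector, 8.97 to 9.25 with Pax5 WT and 8.70 to 9.35 with G183S. These 7 include Pax5 itself, the vector's insert (3.29 higher with Pax5 WT than with empty vector), and otherwise Ms4a1 (2.43) and Fcer2a (2.74) were called, while Cd22, Cr2, Cd79a and Cd79b differed by 0.01, 0.19, 0.30 and -0.43 and were not. The part of these markers in the results was not tested. Each value comes from a whole culture, in which fewer cells with a transcript and less transcript per cell cannot be told apart.

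Which family genes moved with Pax5 was the question for these 10 genes, and no member passed the test in any of the 3 comparisons. The largest differences were in 2 BH3-only genes, Bbc3 and Pmaip1, for which every Pax5 WT array lay below every empty-vector array. Of the 4 Pax5 G183S arrays, 1 lay below every empty-vector array for Bbc3 and 2 did for Pmaip1. Bbc3 averaged 8.77 ± 0.43 log2 units with Pax5 WT against 9.77 ± 0.14 with empty vector (SD, n = 3 each), and Pmaip1 7.75 ± 0.99 against 9.01 ± 0.26. The pro-survival genes, the effector gene Bak1 and the remaining BH3-only genes differed between groups by at most 0.29 log2 units. The plot of each member by array shows this.

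**Figure D1:**
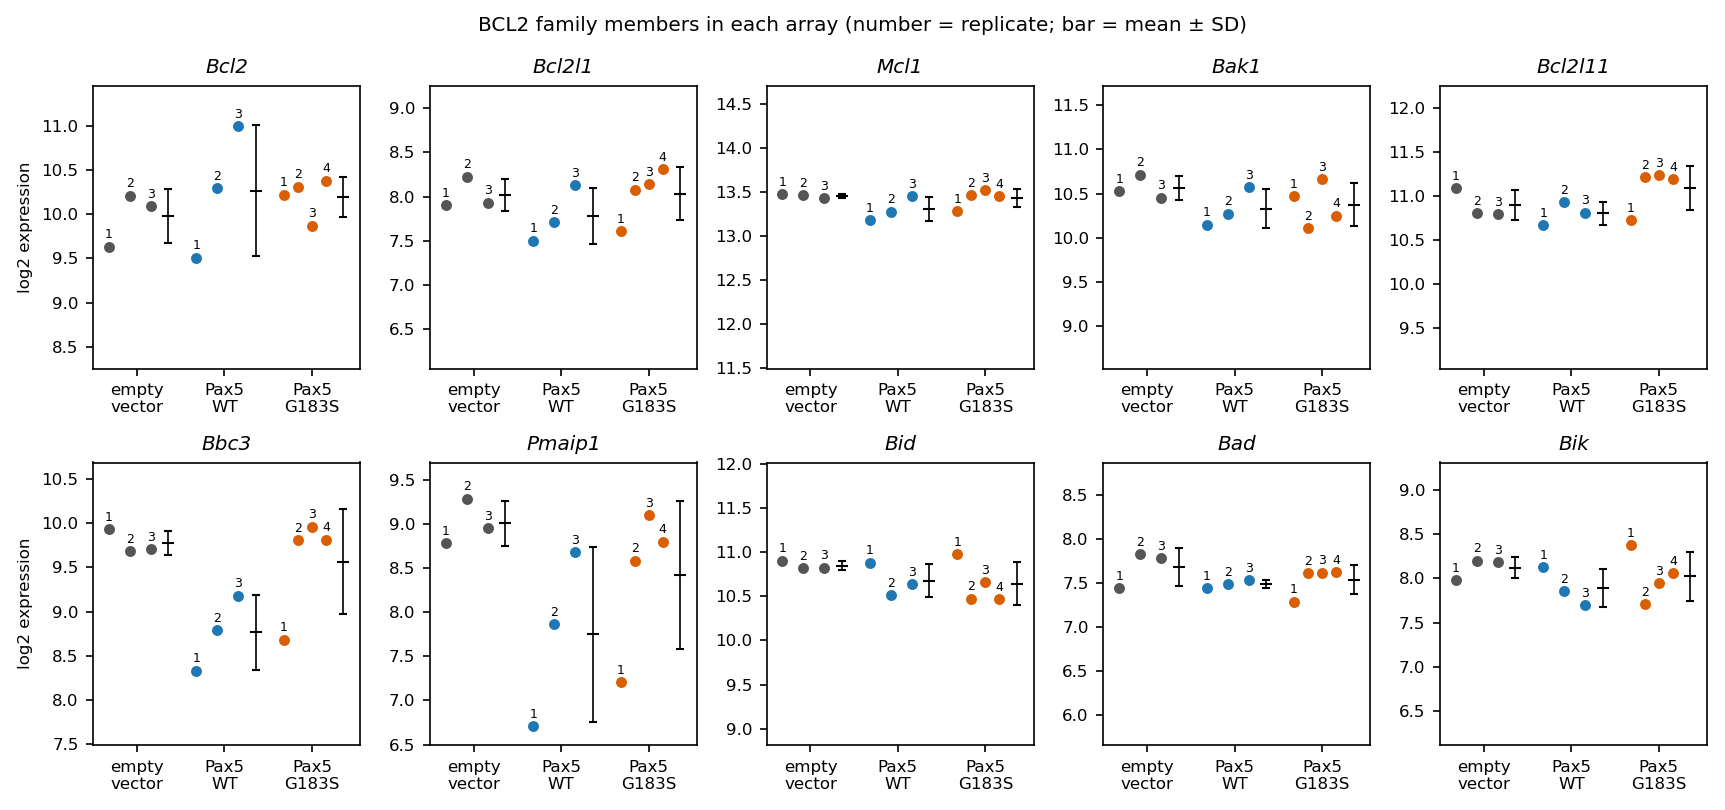
Level of the 10 members in each array, in log2 expression units, for empty vector (grey), Pax5 WT (blue) and Pax5 G183S (orange); small numbers are replicate numbers, bars are group means ± SD, and every panel spans the same number of log2 units. Bbc3 and Pmaip1 show the widest drops, to 8.33 and 6.71 in Pax5 WT replicate 1, while Mcl1 stays between 13.18 and 13.52.

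Bbc3 encodes PUMA, a BH3-only protein that binds every pro-survival relative and is a classic p53 target. Measured by probe set 10550290, its log2 levels were 9.93, 9.68 and 9.71 with empty vector, 8.33, 8.79 and 9.18 with Pax5 WT, and 8.68, 9.80, 9.96 and 9.81 with Pax5 G183S. All 3 Pax5 WT arrays lay below all 3 empty-vector arrays, and G183S replicate 1 sat among the Pax5 WT arrays while the other 3 sat among or above the empty-vector ones. The log2 difference between Pax5 WT and empty vector was -1.01 ± 0.32 SE, a level 2.01-fold lower, with an unadjusted 95% interval from -1.72 to -0.30. Its limma adjusted p over all genes was 0.149, so Bbc3 was not called.

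That call turned on which arrays set the spread. Without G183S replicate 1, which enters this comparison only through the shared estimate of spread, the same difference had an adjusted p of 0.0163. With only the empty-vector and Pax5 WT arrays in the fit it was 0.0493, and with arrays weighted by their agreement it was 0.00751 for a difference of -0.95; over all 17 alternatives it ran from 0.00751 to 0.345. Each of these settings also called more genes overall: 5.18%, 2.94% and 12.9% of all genes, against 1.88% with all arrays in the fit.

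Between the Pax5 forms, Bbc3 was higher with G183S than with wild type by 0.80 ± 0.30 SE log2 units (95% interval 0.14 to 1.46, limma adjusted p = 0.508). Without G183S replicate 1 the difference was 1.10 (adjusted p = 0.0180, with 5.58% of all genes called), and with array weights 0.95 (adjusted p = 0.0167, with 13.8% called); over the alternatives the adjusted p ran up to 0.845. Against empty vector, G183S differed by -0.21 ± 0.30 SE (adjusted p = 0.894), and by 0.087 without its replicate 1. The sign of that difference turned on 1 array.

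Pmaip1 encodes NOXA, a BH3-only protein that chiefly binds MCL-1 and promotes its breakdown. Its levels were 8.78, 9.28 and 8.95 log2 units with empty vector, 6.71, 7.86 and 8.68 with Pax5 WT, and 7.21, 8.58, 9.10 and 8.80 with Pax5 G183S (probe set 10456357). The Pax5 WT arrays were spread from 6.71 to 8.68, all below the empty-vector arrays, of which the lowest stood at 8.78. The mean difference of -1.26 ± 0.53 SE (2.39-fold lower, 95% interval -2.45 to -0.062) did not pass (limma adjusted p = 0.288). With array weights it did (-1.18, limma adjusted p = 0.0304, with 12.9% of all genes called), while over the alternatives the adjusted p ran up to 0.567. Without Pax5 WT replicate 1 the difference was -0.73. G183S lay between the other groups, -0.58 ± 0.50 SE from empty vector (adjusted p = 0.777, and -0.18 without its replicate 1) and 0.67 ± 0.50 SE from Pax5 WT (adjusted p = 0.658). Without Pax5 WT replicate 1 the second value was 0.15, without Pax5 WT replicate 3 it was 1.14, and without G183S replicate 1 it was 1.08 (adjusted p = 0.144).

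Bcl2l11 encodes BIM, the BH3-only protein that removes self-reactive and surplus lymphocytes. It read 11.09, 10.80 and 10.79 log2 units with empty vector, 10.67, 10.93 and 10.81 with Pax5 WT, and 10.72, 11.21, 11.23 and 11.19 with Pax5 G183S. G183S replicates 2, 3 and 4 were the 3 highest arrays of all 10, and G183S replicate 1 was the second lowest. The Pax5 WT arrays overlapped the empty-vector ones (-0.094 ± 0.14 SE, adjusted p = 0.813). G183S exceeded Pax5 WT by 0.29 ± 0.13 SE (95% interval -0.014 to 0.59, limma adjusted p = 0.535). Without G183S replicate 1 the difference was 0.41 (adjusted p = 0.0436, with 5.58% of all genes called). Over the alternatives its adjusted p ran up to 0.845.

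The other BH3-only genes differed less. Bid, whose protein links death receptors to mitochondria, read 10.90, 10.82 and 10.82 with empty vector, 10.88, 10.52 and 10.64 with Pax5 WT, and 10.98, 10.47, 10.66 and 10.47 with G183S, in log2 units. Its highest array was thus G183S replicate 1, the one in which Bbc3, Pmaip1 and Bcl2l11 were low. Bad, whose product is held inactive by survival-factor kinases, lay between 7.29 and 7.83 in all 10 arrays, with G183S replicate 1 the lowest at 7.29 and the other G183S arrays at 7.61 to 7.63. Bik, which encodes a BH3-only protein of the endoplasmic reticulum, lay between 7.69 and 8.38, with G183S replicate 1 the highest. Differences from empty vector were -0.17, -0.20 and -0.23 with Pax5 WT and -0.20, -0.15 and -0.097 with G183S for Bid, Bad and Bik, with limma adjusted p from 0.475 to 0.906.

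Among pro-survival genes, Mcl1 had the smallest SD over the 10 arrays. Its mean of 13.40 log2 units lay above that of 99.9% of all genes, and whether so bright a probe set follows its transcript in full was not tested. It stood at 13.48, 13.46 and 13.43 log2 units with empty vector, 13.18, 13.28 and 13.46 with Pax5 WT, and 13.28, 13.46, 13.52 and 13.45 with G183S. Its difference from empty vector was -0.15 ± 0.086 SE with Pax5 WT (95% interval -0.34 to 0.042, adjusted p = 0.441) and -0.028 ± 0.081 SE with G183S (-0.21 to 0.15, adjusted p = 0.964). A difference in Mcl1 signal beyond 0.34 log2 units in either direction lies outside both intervals.

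Bcl2, the founding survival gene, had the widest spread of this group. Its levels were 9.63, 10.21 and 10.09 log2 units with empty vector, 9.51, 10.30 and 11.00 with Pax5 WT, and 10.22, 10.31, 9.87 and 10.38 with G183S. The lowest and the highest of the 10 values are both Pax5 WT arrays, replicates 1 and 3. The mean difference of 0.29 ± 0.32 SE between Pax5 WT and empty vector (adjusted p = 0.719) turned to -0.076 without Pax5 WT replicate 3 and was 0.67 without replicate 1, and with G183S it was 0.22 ± 0.30 SE (adjusted p = 0.887). The direction for Bcl2 was thus not settled by these arrays.

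Bcl2l1, which encodes BCL-XL, read 7.90, 8.23 and 7.93 with empty vector, 7.50, 7.71 and 8.13 with Pax5 WT, and 7.61, 8.08, 8.14 and 8.31 with G183S, in log2 units. The groups overlapped, and the differences from empty vector were -0.24 ± 0.20 SE (adjusted p = 0.613) and 0.014 ± 0.18 SE (adjusted p = 0.993). The effector gene Bak1 read 10.53, 10.71 and 10.45 with empty vector, 10.15, 10.27 and 10.57 with Pax5 WT, and 10.47, 10.11, 10.66 and 10.25 with G183S. It too overlapped between groups, at -0.23 ± 0.15 SE (adjusted p = 0.508) and -0.19 ± 0.14 SE (adjusted p = 0.726) from empty vector.

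**Figure D2:**
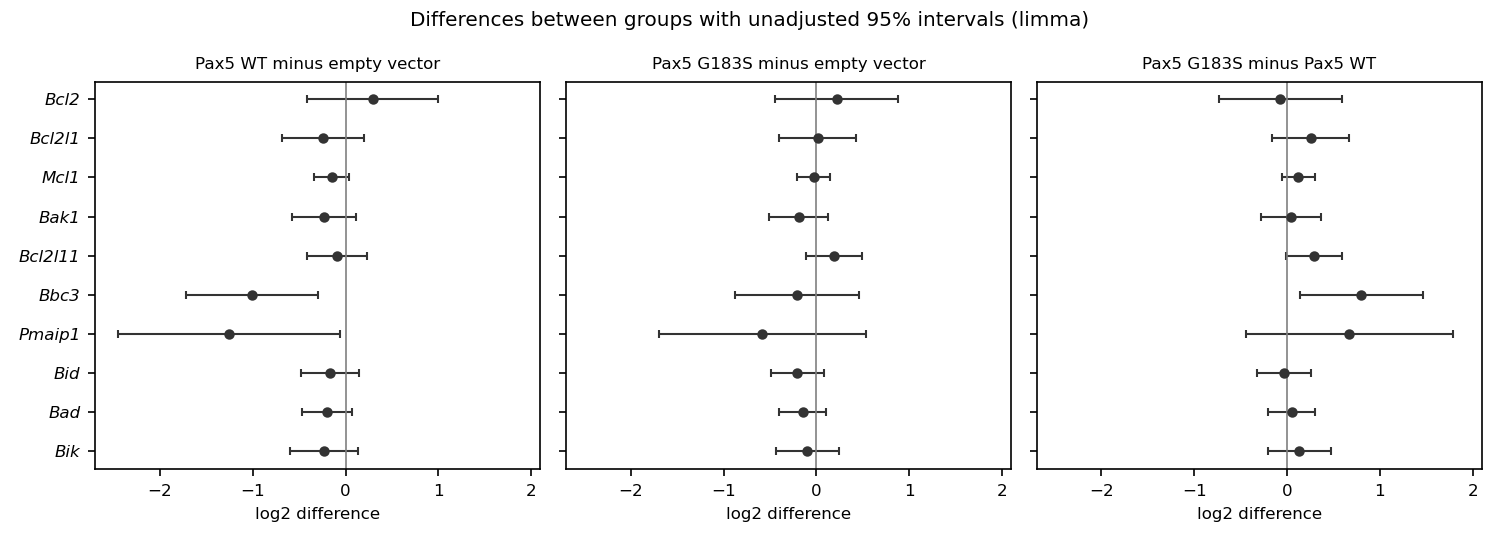
Log2 difference of each member (points) in the 3 comparisons, with limma's 95% interval (bars, not adjusted for the number of genes). With Pax5 WT against empty vector the intervals of Bbc3 and Pmaip1 lie below 0, and between G183S and Pax5 WT that of Bbc3 lies above 0; every other interval crosses 0.

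Counted over the family, 0 of 10 members passed an adjusted p of 0.05 between Pax5 WT and empty vector, where 1.88% of all genes did. Unadjusted p was under 0.05 for 2, both lower, against 8.55% of all genes lower and 15.9% in either direction. In the same 2 genes every Pax5 WT array lay below every empty-vector array, as in 12.5% of all genes. In all, 9 of 10 members had a lower mean with Pax5 WT, Bcl2 being the exception. Of all 19937 genes 9189 had a lower mean. The median difference of the members was -0.21 log2 units, against 0.013 over all genes. Members are read on the same arrays, so such counts are not made of separate observations. Against empty vector, G183S had 0 of 10 members past the adjusted threshold (0.311% of all genes), 0 at an unadjusted p under 0.05 (11.3% of all genes) and 0 with groups that did not overlap (11.6% of all genes). There 7 members and 10216 of all genes had a lower mean. The median difference of the members was -0.12, against -0.0033 over all genes.

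Between G183S and Pax5 WT, 0 of 10 members and 0% of all genes passed. Bbc3 was the 1 member with an unadjusted p under 0.05, as were 9.48% of all genes in either direction and 5.08% in its direction, higher with G183S. No member had groups that did not overlap, while 6.5% of all genes did. The mean of 8 members was higher with G183S, Bcl2 and Bid being the others, and 8678 of all 19937 genes were higher. The median difference of the members was 0.13, against -0.018 over all genes. The 2 comparisons with empty vector share its arrays and so are not independent of each other. Over the 10 arrays the SD was 0.85 for Pmaip1, above 99.4% of all genes, 0.60 for Bbc3 (98.1%) and 0.42 for Bcl2 (95.1%), but 0.11 for Mcl1 (36.9%).

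An order of arrays recurred across roles, and was noticed after the values were seen. Pax5 WT replicates 1 and 2 and G183S replicate 1 were the 3 lowest of the 10 arrays for 4 of 10 members, namely Bcl2l1, Mcl1, Bbc3 and Pmaip1. Over all genes 8.14% had the same 3 arrays lowest. For Bcl2l1, Bbc3 and Pmaip1 they also came in the same order, Pax5 WT replicate 1 lowest, then G183S replicate 1, then Pax5 WT replicate 2, as for 2.58% of all genes. Pax5 WT replicate 1 was the lowest array for 6 of 10 members and for 14.8% of all genes.

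Pax5 transcript stood at 10.67 and 10.09 log2 units in Pax5 WT replicates 1 and 2 and at 10.22 in G183S replicate 1. In the other arrays with a Pax5 insert it was 10.05 in Pax5 WT replicate 3 and 10.36, 9.38 and 9.96 in G183S replicates 2, 3 and 4. The mean of the 10 plasma-cell markers was highest in G183S replicate 1 (11.70 log2 units), Pax5 WT replicate 2 (11.66) and Pax5 WT replicate 1 (11.60). It was 11.20 in Pax5 WT replicate 3, 10.76, 10.84 and 11.05 in the other G183S arrays and 11.42 to 11.57 with empty vector. For 4 of the 10 plasma-cell markers (Prdm1, Irf4, Ell2 and Fkbp11) Pax5 WT replicates 1 and 2 and G183S replicate 1 were the 3 highest arrays, as for 6.09% of all genes. Other markers did not share this. Sdc1 read 10.97, 10.87 and 11.03 in these 3 arrays, below the 11.22 to 11.51 of empty vector. The part of Pax5 level and of these markers in the results was not tested.

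**Figure D3:**
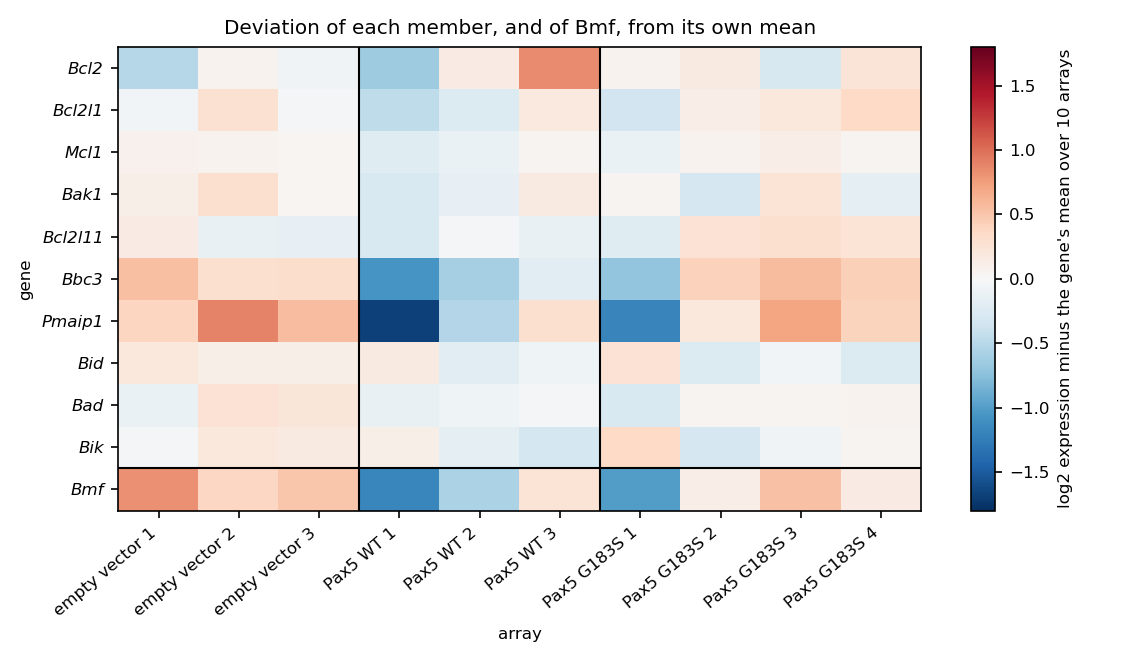
Each gene's log2 level minus its own mean over the 10 arrays (blue lower, red higher), with arrays in columns, the 10 members in rows and the related BH3-only gene Bmf below the line. Bbc3, Pmaip1 and Bmf share their 3 bluest arrays, Pax5 WT replicates 1 and 2 and G183S replicate 1, whereas Bid and Bik do not.

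Other family genes were read from a list of 16, of which 12 were measured with a single symbol. None passed the adjusted threshold in any comparison, while 4, 1 and 2 had an unadjusted limma p under 0.05 for Pax5 WT against empty vector, G183S against empty vector and G183S against Pax5 WT, where 15.9%, 11.3% and 9.48% of all genes did. Bmf, the BH3-only gene known for death on loss of attachment, ran parallel to Bbc3 and Pmaip1. It read 10.91, 10.46 and 10.58 log2 units with empty vector, 8.91, 9.51 and 10.34 with Pax5 WT, and 9.09, 10.20, 10.61 and 10.24 with G183S. All Pax5 WT arrays were below the empty-vector ones (-1.06 ± 0.41 SE, adjusted p = 0.236), and with G183S the difference was -0.62 ± 0.38 SE (adjusted p = 0.639). Bcl2l15 was 0.35 log2 units higher with G183S than with empty vector (adjusted p = 0.241) and 0.36 higher than with Pax5 WT (adjusted p = 0.484). Bcl2l10 was 0.24 higher with Pax5 WT than with empty vector (adjusted p = 0.130). Both lay below 7.23 log2 units, the median gene, where probe sets are dim. Bcl2a1c has near-identical copies, so its probe set cannot be tied to 1 gene with certainty.

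Downstream of the family, 0 of 17 genes of mitochondrial execution passed in any comparison, with medians of -0.056, -0.032 and -0.018 log2 units in the same order of comparisons. Apaf1, the scaffold of the apoptosome, was 0.39 ± 0.14 SE higher with G183S than with Pax5 WT (adjusted p = 0.499). The DNA fragmentation factor genes Dffa (-0.26, adjusted p = 0.113) and Dffb (-0.33, adjusted p = 0.210) were lower with Pax5 WT than with empty vector. The effector caspase gene Casp6 (-0.55, adjusted p = 0.268) and the mitochondrial channel gene Vdac1 (-0.32, adjusted p = 0.175) were lower with G183S than with empty vector. Both were also lower with Pax5 WT, by -0.47 (limma adjusted p = 0.299) and -0.20 (0.360). None of these genes was called.

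The death-receptor pathway had 0 of 9 genes past the threshold in any comparison. Tnfrsf10b, the mouse TRAIL receptor gene, read 9.46, 9.31 and 9.09 log2 units with empty vector, 8.46, 8.54 and 9.11 with Pax5 WT, and 8.74, 9.79, 10.05 and 9.85 with G183S. It was 0.90 ± 0.29 SE higher with G183S than with Pax5 WT (adjusted p = 0.484) and G183S replicate 1 was again among the Pax5 WT values. The TNF receptor gene Tnfrsf1a was 0.52 lower with Pax5 WT than with empty vector (adjusted p = 0.178). Tnfrsf1b (0.48, adjusted p = 0.355) and the caspase-8 inhibitor gene Cflar (0.30, adjusted p = 0.423) were higher with G183S than with empty vector.

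Among 13 genes of transcription factors known to act on family genes, 1 passed, between Pax5 WT and empty vector, where 1.88% of all genes did. Rel, the NF-kB subunit gene c-Rel that drives survival genes in B cells, rose with Pax5 WT by 0.56 ± 0.12 SE log2 units (limma adjusted p = 0.0484). That call held in 7 of 17 alternatives, added after the data were seen, with differences from 0.46 to 0.69 and adjusted p from 0.00232 to 0.173. It was lost without any 1 of the 3 empty-vector arrays (adjusted p 0.137, 0.130 and 0.173), without Pax5 WT replicate 2 (0.131) or 3 (0.0989), and without G183S replicate 2 (0.0755), 3 (0.0577) or 4 (0.0722). Its levels were 11.22, 11.43 and 11.26 with empty vector and 11.60, 11.93 and 12.06 with Pax5 WT. G183S arrays lay at 11.60 to 11.82, all above empty vector (0.40 ± 0.11 SE, adjusted p = 0.156). Foxo3, a forkhead factor that activates Bcl2l11 and Bbc3, read 10.41, 10.39 and 10.46 with empty vector, 9.85, 10.01 and 10.10 with Pax5 WT, and 9.88, 10.17, 10.36 and 10.26 with G183S. Both Pax5 groups lay wholly below empty vector, by -0.43 ± 0.12 SE (adjusted p = 0.0995) and -0.25 ± 0.11 SE (adjusted p = 0.423). Ddit3, the stress factor CHOP, read 10.56, 10.38 and 10.15 with empty vector, 8.33, 9.38 and 10.27 with Pax5 WT, and 9.50, 10.54, 10.83 and 10.74 with G183S. It was 1.08 ± 0.43 SE higher with G183S than with Pax5 WT (adjusted p = 0.508). Stat3 was 0.32 lower with Pax5 WT than with empty vector (adjusted p = 0.108) and 0.20 higher with G183S than with Pax5 WT (adjusted p = 0.508). Jun was lower than with empty vector by 0.58 with G183S (limma adjusted p = 0.151) and by 0.43 with Pax5 WT (0.241).

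For 14 genes of kinases, ligases and partners that act on the proteins, 0 passed. Fbxo10, a ubiquitin ligase gene whose product targets BCL-2, was 0.57 lower with Pax5 WT than with empty vector (adjusted p = 0.209) and 0.52 higher with G183S than with Pax5 WT (adjusted p = 0.507). The survival kinase gene Akt1 was 0.27 higher with Pax5 WT than with empty vector (adjusted p = 0.288) and 0.29 lower with G183S than with Pax5 WT (adjusted p = 0.503). Of the regulators of MCL-1 stability, the ligase gene Fbxw7 was 0.35 lower (adjusted p = 0.323) and the deubiquitinase gene Usp9x 0.21 higher (adjusted p = 0.368) with G183S than with empty vector. The 3 low arrays of Bbc3 were also the 3 lowest for 5 of 13 transcription regulators (Foxo3, Ddit3, Atf4, Rela and Stat3), 4 of 14 protein regulators, 3 of 12 other family genes (Bmf, Bcl2l13 and Bnip3), 2 of 9 death-receptor genes and 0 of 17 execution genes, beside 8.14% of all genes and 2 of 8 myeloid markers (Adgre1 and Mpo). They were the 3 highest arrays for 4 of the 17 execution genes, against 6.09% of all genes.

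**Figure D4:**
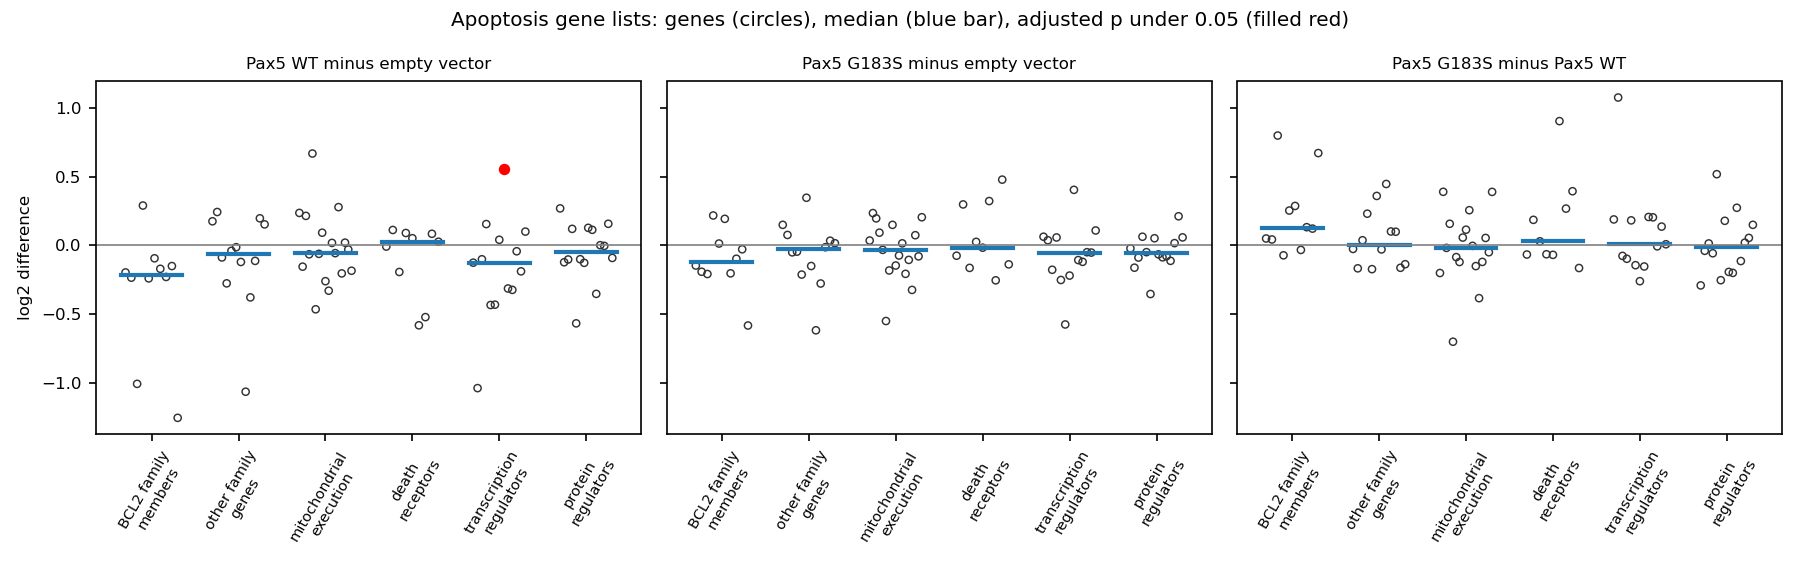
Log2 difference of each gene (circles) in the family and in 5 apoptosis lists, for the 3 comparisons, with the list median as a blue bar; filled red marks an adjusted p under 0.05. The only filled point is Rel with Pax5 WT, at 0.56, and the lowest points of that panel are Pmaip1, Bmf, Ddit3 and Bbc3.

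The promoters of Bbc3 and Bcl2l11 are shown because both genes are textbook targets of forkhead factors and theirs were the only member windows with the forkhead core. The RefSeq table (GRCm38.p6) held windows for 8 of the 10 members, 14 in all. It held none for Pmaip1 or Bik, which were not searched. In each window the 250 bases before the start were searched on both strands for the forkhead core TGTTTAC (reverse strand GTAAACA). A match was found in 1 of 3 Bbc3 windows and 1 of 2 Bcl2l11 windows, in no window of the other 6 members, and in 3.17% of 32851 windows of all genes. Each is printed 5′ to 3′ along the plus strand, which is the gene's strand, with the match in capitals.
Bbc3, chr7:16310011-16310260: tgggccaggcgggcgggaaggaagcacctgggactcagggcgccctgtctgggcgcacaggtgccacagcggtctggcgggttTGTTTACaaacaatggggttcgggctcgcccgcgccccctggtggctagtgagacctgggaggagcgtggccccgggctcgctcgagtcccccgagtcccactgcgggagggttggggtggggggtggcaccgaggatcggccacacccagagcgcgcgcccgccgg
Bcl2l11, chr2:128125788-128126037: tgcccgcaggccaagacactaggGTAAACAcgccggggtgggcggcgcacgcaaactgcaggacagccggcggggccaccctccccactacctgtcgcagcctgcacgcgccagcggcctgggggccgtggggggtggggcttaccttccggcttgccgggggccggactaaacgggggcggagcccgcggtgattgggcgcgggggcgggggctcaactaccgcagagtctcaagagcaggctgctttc
Counted from the RefSeq start, the match spans positions -167 to -161 in Bbc3, on the plus strand, and -227 to -221 in Bcl2l11, on the minus strand. The E-box CACGTG was found in 1 Bbc3 window and in no other member's, and in 6.02% of all windows; it shares no base with the forkhead core. The GC box GGGCGG was found in 9 of the 14 member windows and in 32.7% of all windows, all 3 Bbc3 windows included. The matches are letters only, with no binding measured.

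By closeness of pattern over the 10 arrays, measured as the mean absolute difference after each gene was centred on its own mean, Bbc3 was nearest to H2-Q4, a class I MHC gene of the Q region. The 2 differed by 0.029 log2 units on average, where Bbc3 itself deviated from its mean by 0.51. H2-Q4 read 11.65, 11.42 and 11.52 with empty vector, 10.05, 10.54 and 10.95 with Pax5 WT, and 10.41, 11.57, 11.77 and 11.53 with G183S, so it had the same drop in G183S replicate 1. The autophagy gene Atg14 (0.079) and Thap6 (0.11) came next. Nearest to Pmaip1, which deviated by 0.68, were the lipid hydrolase gene Abhd4 (0.12), Tmem140 (0.19) and the small GTPase gene Rhoq (0.19). Abhd4 was lowest in Pax5 WT replicate 1 (7.83) and G183S replicate 1 (8.39), and the remaining 8 arrays lay from 9.09 to 10.60. None of these 6 neighbours passed the adjusted threshold in any comparison, with limma adjusted p from 0.119 to 0.955. They were picked for closeness to 2 uncalled members over these same arrays, so this is not a separate result.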

How the data were processed

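Each of the 10 samples was 100 ng of total RNA on 1 Affymetrix array. The deposited log2 values per probe set were made by the authors with RMA and Partek, per the submitters' processing notes, which name no versions, roles or filters in what was used here. Since RMA equalises the arrays' distributions, a change common to most genes would be hidden. Scanner files and detection calls were not used here. Of 34760 probe sets 21640 had 1 symbol, 1321 several and 11799 no entry; the highest-mean probe set per gene gave 19937 genes, tested without a filter. No build is named for the arrays, so probe sets are given without coordinates; promoter windows carry RefSeq's.

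limma 3.58.1 (R 4.3.3) fitted 1 coefficient per group over all 10 arrays, with empirical Bayes moderation and two-sided Benjamini-Hochberg adjustment over all genes; adjusted p under 0.05 was called. The fit was tested on simulated data. Figures used matplotlib 3.10.9. The members, gene lists and alternatives were chosen with earlier results of these data known. Named genes are the members, called list genes and the 2 further genes of smallest p per list and comparison. The 3 genes nearest in pattern to the 2 most variable members were named as well. Atf4, Rela, Bcl2l13, Bnip3, Bcl2a1c, Adgre1, Mpo and the plasma-cell and mature B-cell markers were named after their values were seen. Alternatives were array weights, a replicate block, the mean of a gene's probe sets, a filter on dim probe sets, array centring, an intensity trend, a fit of the compared groups alone, and each array left out in turn.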

Additional observations from a re-analysis of the deposited data

Results flagged for a closer look

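Within the 4 Pax5 G183S arrays, replicate 1 stood apart from the others for 3 of the 10 members, by the gap to its nearest neighbour over the group's range. For independent, normally spread values such a gap arises in about 1 of 20 groups. The share of all genes with such a gap was not counted, and members read on 1 array are not independent. Over all genes this array also had the lowest array weight, 0.335. Whether the 3 members exceed that background was thus not tested, and groups of 3 were not tested. Bbc3 read 8.68 log2 units there, with the next array at 9.80. Bcl2l11 read 10.72, with the next at 11.19. Bad read 7.29, with the next at 7.61. All 3 deviated downward.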

How the results depend on the processing

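The members gave 510 values under 17 alternatives. Direction and side of the threshold held for 280 with 1 array left out and for 201 under the others. The threshold was newly passed by 3 and 4, and 22 changed sign, all at an adjusted p of at least 0.621. With array weights 2 members were called between Pax5 WT and empty vector (Bbc3 and Pmaip1), beside 12.9% of all genes. Between G183S and Pax5 WT these weights called 1 member (Bbc3), beside 13.8% of all genes. With only the compared groups in the fit, 1 was called between Pax5 WT and empty vector (Bbc3), beside 2.94% of all genes. Leaving out 1 array gave 0 to 1 called members between Pax5 WT and empty vector and 0 to 2 between G183S and Pax5 WT. The higher count in each came without G183S replicate 1, where 5.18% and 5.58% of all genes were called. Between G183S and empty vector, leaving out any 1 array called 0 members.

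Signs turned with array weights for Bak1 (-0.028, G183S against Pax5 WT), Bcl2l11 (0.028, Pax5 WT against empty vector) and Mcl1 (0.0013, G183S against empty vector). With the replicate block they turned for Bcl2l1 (-0.078, G183S against empty vector) and Bid (0.026, G183S against Pax5 WT). Only G183S has a replicate 4, so the block removes that array from the differences with G183S. For Bcl2l1, leaving out G183S replicate 4 gave the same -0.078. Leaving out 1 array gave ranges across 0 between Pax5 WT and empty vector for Bcl2 (-0.076 to 0.67) and Bcl2l11 (-0.16 to 0.0016). Between G183S and empty vector they were -0.34 to 0.087 for Bbc3, -0.078 to 0.15 for Bcl2l1, -0.22 to 0.0077 for Bik and -0.059 to 0.021 for Mcl1. Between G183S and Pax5 WT they were -0.053 to 0.16 for Bak1, -0.45 to 0.29 for Bcl2 and -0.14 to 0.069 for Bid.

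Over all genes 374, 62 and 0 were called in the 3 comparisons. The counts were 228, 10 and 2 with the replicate block, which called 0 members in each, and 2576, 1449 and 2752 with array weights; 587 were called between Pax5 WT and empty vector with only those groups. Leaving out 1 array gave 6 to 1033, 8 to 295 and 0 to 1113. Centring arrays on their medians gave 102 higher and 246 lower with Pax5 WT in place of 176 and 198. With 3 or 4 arrays per group, the number of arrays limits what could be called. Replicate numbers were not taken as pairing the arrays in the main fit. Same-numbered deviations correlated at -0.16 to 0.51 over 9 pairs. Deviations within a group of 3 or 4 arrays depend on each other, so this range cannot decide whether arrays were paired. The highest of all, 0.51 and 0.455, joined Pax5 WT and G183S replicates 1, the 2 arrays lowest in Bbc3, and replicates 3; differently numbered arrays reached 0.29. Rel lost its call with the replicate block (adjusted p = 0.0557) and with only the compared groups (0.0702).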
